A study of Homo sapiens with 4 samples.

Results

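F-box genes encode the exchangeable subunits that choose substrates for SCF ubiquitin ligases. Counted together with the invariant SCF subunits, 69 human genes of this kind were looked for in 4 RNA-seq libraries. Members were taken by name: every protein-coding gene whose Entrez identifier maps to a symbol of the FBXO, FBXW or FBXL series, plus SKP1, SKP2, CUL1, RBX1, CCNF and BTRC, with pseudogenes and antisense genes left out. This gave 37 genes of the FBXO group, counting CCNF, 11 of the FBXW group, counting BTRC, 18 of the FBXL group, counting SKP2, and the 3 core genes. The deposited data list 17963 identifiers, and 3 of the 69 genes are not among them. The naming rule uses no measured value.

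An SCF ligase is built on the cullin scaffold CUL1. Its carboxyl end holds the RING protein RBX1, which recruits the ubiquitin-loaded E2 enzyme, and its amino end holds the adaptor SKP1, which grips the F-box motif of whichever substrate receptor is docked. FBXW receptors read substrates through WD40 repeats, FBXL receptors through leucine-rich repeats, and FBXO receptors through assorted domains; FBXO42, also called JFK, carries Kelch repeats and has been described as a ligase for ING4.

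All 4 libraries were labelled HepG2, a human line from a liver tumour. One pair of tables came from cells given a FLAG-tagged JFK plasmid and cells given the empty vector, and the other from cells given ING5 siRNA and cells given a control siRNA; ING5 reads methylated histone H3 for complexes that acetylate histones. Each of the 4 groups held 1 library, so no difference has a replicate check and no test or p-value is given; each fold carries a 95% interval by the exact Clopper-Pearson method on its 2 counts, which covers counting error only. No promoter of the plasmid, siRNA sequence or time of harvest is stated in the labels. Assigned reads came to 7237325 in the library labelled JFK, 7179365 in vector, 9030075 under ING5 siRNA and 9196979 under control siRNA. Of 15 hepatocyte markers, 1 reached 20 counts in each library, the nuclear receptor gene HNF4A. Those without a listed count numbered 5 in the library labelled JFK, 8 in vector, 9 under ING5 siRNA and 7 under control siRNA, and the summed level of the list ran from 11.2 to 15.3 CPM, the count scaled to library totals. The labelled cell type is therefore not borne out by most of these markers. Summed markers of other cell types ran from 76.3 to 96.1 CPM for fibroblasts and 2.23 to 3.10 for muscle. Among fibroblast markers COL1A1 gave 44.2 of 78.8 CPM in the library labelled JFK and 39.1 of 76.3 in vector. The fibroblast marker COL1A2 was not listed in the vector pair, and had 0 counts under ING5 siRNA and 2 under control siRNA. The muscle sum rested mostly on the marker DES, at 2.35 of 2.49 CPM in the library labelled JFK. Each of the sums for the 3 remaining cell types also rested mostly on 1 gene. KRT17, a keratin gene, gave 3805 of 3813 CPM in the library labelled JFK for kidney or breast carcinoma lines, whose other markers had 4.98 CPM at most in any library; the sums were 2933 in vector, 263 under ING5 siRNA and 299 under control siRNA. CDH5 gave 156 of 164 CPM in the library labelled JFK for endothelium, with sums of 145 in vector, 12.1 under ING5 siRNA and 26.3 under control siRNA. LYZ gave 16.0 of 17.8 CPM in vector for leukocytes, where the siRNA pair had 1.99 at most. Outside the fibroblast list, these sums are the levels of those genes rather than of whole marker lists. Their part in the values below was not tested.

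The promoters of 5 members are shown because the results turn on these genes: FBXO42 is the gene named by the plasmid label, RBX1, FBXO4 and SKP2 are the members whose intervals lay below 0 in both pairs, and FBXL2 is 1 of the 2 members at least 1.5-fold higher under ING5 siRNA. They were chosen after their values were seen. Each run is the 250 bases before the gene start in RefSeq (GRCh38.p14), 5′ to 3′ on the gene's strand, with GC boxes (GGGCGG or its reverse complement) and CCAAT boxes in capitals.
FBXO42, chr1:16352481-16352730, minus strand: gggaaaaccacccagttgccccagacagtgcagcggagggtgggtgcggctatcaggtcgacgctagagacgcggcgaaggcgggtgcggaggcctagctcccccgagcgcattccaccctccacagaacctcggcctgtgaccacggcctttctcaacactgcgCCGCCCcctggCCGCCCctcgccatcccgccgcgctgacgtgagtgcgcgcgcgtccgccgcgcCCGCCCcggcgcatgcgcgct
RBX1, chr22:40951128-40951377, plus strand: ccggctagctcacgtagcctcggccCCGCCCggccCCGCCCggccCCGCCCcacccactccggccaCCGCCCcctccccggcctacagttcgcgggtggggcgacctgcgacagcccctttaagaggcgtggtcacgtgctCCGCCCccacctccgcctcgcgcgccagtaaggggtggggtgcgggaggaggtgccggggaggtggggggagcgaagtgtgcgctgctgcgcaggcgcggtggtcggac
FBXO4, chr5:41925031-41925280, plus strand: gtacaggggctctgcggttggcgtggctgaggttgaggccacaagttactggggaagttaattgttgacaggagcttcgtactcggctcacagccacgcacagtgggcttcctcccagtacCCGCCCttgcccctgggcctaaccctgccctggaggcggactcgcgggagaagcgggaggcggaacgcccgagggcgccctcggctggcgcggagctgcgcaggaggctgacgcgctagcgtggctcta
SKP2, chr5:36151861-36152110, plus strand: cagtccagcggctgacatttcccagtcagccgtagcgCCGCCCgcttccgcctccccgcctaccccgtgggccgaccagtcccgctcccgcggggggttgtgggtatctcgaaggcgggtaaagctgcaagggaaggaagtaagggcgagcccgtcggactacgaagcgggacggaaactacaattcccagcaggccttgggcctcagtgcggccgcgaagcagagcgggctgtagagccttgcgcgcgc
FBXL2, chr3:33277192-33277441, plus strand: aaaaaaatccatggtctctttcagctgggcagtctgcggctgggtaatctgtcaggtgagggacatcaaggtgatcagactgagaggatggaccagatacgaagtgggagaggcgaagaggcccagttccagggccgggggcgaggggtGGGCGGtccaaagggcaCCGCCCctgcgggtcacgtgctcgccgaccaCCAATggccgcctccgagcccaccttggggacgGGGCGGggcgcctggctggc
All 5 are rich in G and C, from 65.2% in FBXL2 to 76.8% in RBX1. RBX1 holds 5 GC boxes, FBXO42 and FBXL2 hold 3 each, and FBXO4 and SKP2 hold 1 each; among these 5 genes, FBXL2 alone holds a CCAAT box. Of 69 members, 54 have a promoter in the RefSeq table. On either strand GGGCGG stood in 66.7% of the 54, against 56.0% of 15843 protein-coding promoters of the same length. CCAAT stood in 25.9% against 34.5%, the TATA box TATAAA in 7.41% against 9.23%, and the ETS-type sequence CCGGAAG in 16.7% against 11.8%. These matches describe letters in the window and not binding.

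Transcripts of the core far outnumbered those of most receptors (plot of transcript levels by library). Levels between genes are compared per length, as the deposited FPKM of the vector pair and the deposited RPKM of the siRNA pair, which were made separately. SKP1, the adaptor shared by every SCF ligase, was the most abundant member in each library, with 116 FPKM in the library labelled JFK against 123 in vector, and 109 RPKM under ING5 siRNA and 112 under control siRNA. CUL1 had 38.6 FPKM in the library labelled JFK against 41.1 in vector, and 53.2 RPKM under ING5 siRNA and 60.0 under control siRNA. RBX1 was second to SKP1 in the vector pair, with 76.4 FPKM in the library labelled JFK against 91.1 in vector. In the siRNA pair it ranked 8 under ING5 siRNA, with 24.4 RPKM, and 5 under control siRNA, with 33.0 RPKM.

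Among receptors, the highest mean levels belonged to FBXO7, a Parkinson disease gene linked to mitophagy and proteasome regulation, to SKP2, which marks the cell cycle inhibitor p27 for destruction, and to FBXO2, which binds the sugar chains of misfolded glycoproteins. FBXO7 had 56.3 FPKM in the library labelled JFK against 59.5 in vector, and 45.7 RPKM under ING5 siRNA and 49.5 under control siRNA. FBXO2 had 62.2 FPKM in the library labelled JFK against 53.8 in vector, and 18.5 RPKM under ING5 siRNA and 21.1 under control siRNA. Receptors with few or no reads included several known from other tissues. FBXO32, the muscle atrophy gene atrogin-1, had 9 counts in the library labelled JFK against 9 in vector, and 27 under ING5 siRNA and 26 under control siRNA. FBXO40, also a muscle gene, stayed under the filter in both pairs, and FBXO15, a gene of embryonic stem cells, had 0 under ING5 siRNA and 1 under control siRNA. FBXO15 and FBXO47 have values in the siRNA pair only, and FBXL7, FBXO39 and FBXW12 are listed in neither pair and have no value.

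**Figure D1:**
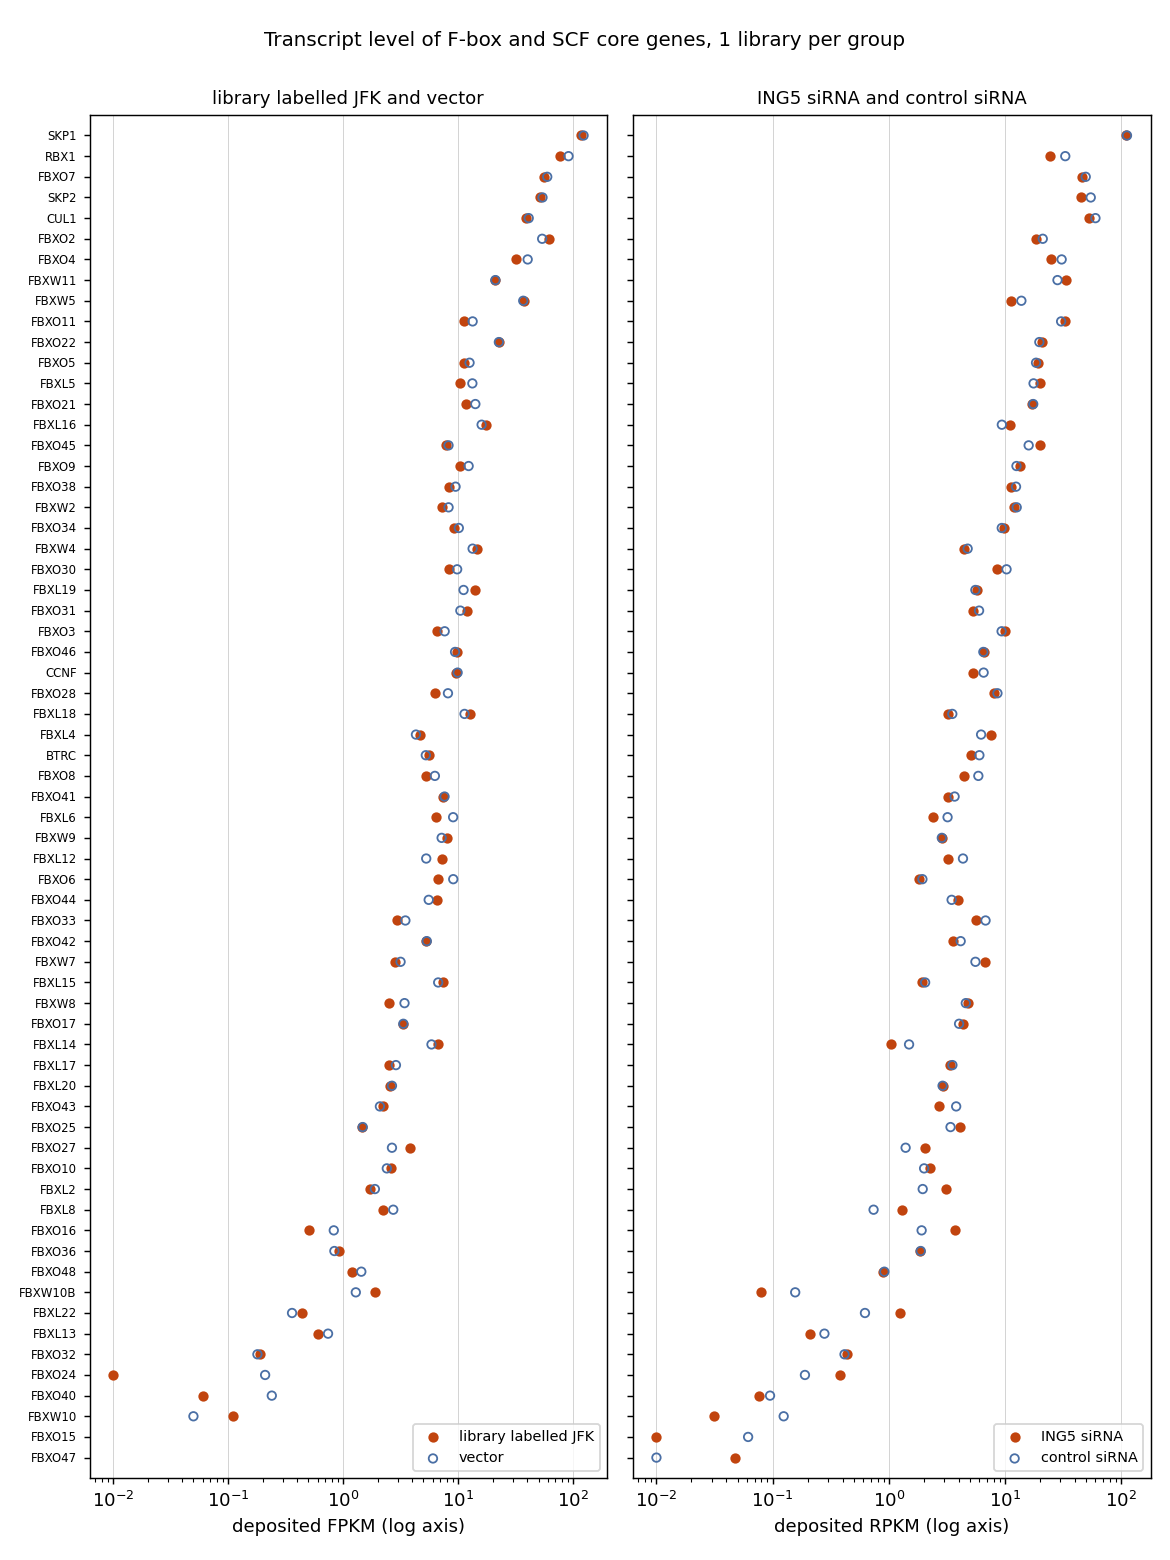
Deposited FPKM (left panel: library labelled JFK filled, vector open) and deposited RPKM (right panel: ING5 siRNA filled, control siRNA open) on log axes for members with a value, 1 of them not shown, ordered by mean level; 0.01 stands for no reads. SKP1 leads in all 4 libraries, at 109 to 123, and FBXO42 lies at 3.54 to 5.34.

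FBXO42 was read first in each pair, since its transcript checks the plasmid label. FBXO42 (Entrez Gene 54455, chromosome 1) had 115 counts in the library labelled JFK (exact 95% Poisson interval 94.9 to 138) and 116 in vector (95.9 to 139), a fold of 1.01 with an interval of 0.772 to 1.32. The library labelled JFK thus held no more FBXO42 reads than vector, and 1.5-fold higher FBXO42 lies outside the interval. Scaled to library size it stood at 15.9 CPM in the library labelled JFK against 16.2 CPM in vector. Under ING5 siRNA it had 97 counts against 115 under control siRNA (log2 fold −0.23, interval −0.63 to 0.17), so a lower level was not separable from counting error. FBXO42 was a receptor of middling abundance in all 4 libraries: it ranked 41 in the library labelled JFK, 39 in vector, 40 under ING5 siRNA and 37 under control siRNA among members, and exceeded 45.1% to 48.6% of all genes listed.

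The first comparison, of the library labelled JFK over vector, asks which members differ with the plasmid. Differences were small: of the 64 members listed, 56 reached a mean scaled count of 20, and their log2 folds ran from −0.46 to 0.59 with a median of −0.04, against 0.0023 for all 12107 genes measured. Only 1 of the 56 was at least 1.5-fold higher (1.79%, against 1.5% of all genes measured) and 0 were at least 1.5-fold lower (against 2.07%). Intervals lay wholly above 0 for 4 members (7.14%, against 14.3% of all genes) and wholly below 0 for 8 (14.3%, against 11.2%). For 35 of the 56 (62.5%, against 70.1% of all genes) the interval lay wholly inside 1.5-fold in either direction. None was 2-fold higher (0, against 0.273%) or 2-fold lower (0, against 0.297%), and 23 lay above 0 (against 50.5%). These shares describe a pair of libraries. The median of mean scaled counts was 228.5 for members and 261.4 for all genes measured. More reads give narrower intervals, and shares of intervals here and below were not matched for read depth. In bulk RNA, fewer cells of a type and less RNA per cell cannot be told apart.

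Core transcripts stood slightly below vector. RBX1, the RING subunit, had 492 counts in the library labelled JFK against 579 in vector (log2 fold −0.21, interval −0.39 to −0.03). CUL1 had 911 counts against 957 (−0.05, interval −0.18 to 0.09), and SKP1 had 1717 expected counts against 1793 (−0.04, interval −0.13 to 0.06). Of the 3, RBX1 alone had an interval that left out 0. Over all genes, 11.2% of intervals lay wholly below 0 and 49.5% of log2 folds lay below 0. So few genes do not set the core apart from all genes. Summed over the core, reads came to 431 CPM in the library labelled JFK against 464 in vector, and over all F-box genes to 1899 and 1974 CPM.

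FBXL receptors lay on both sides of vector. Of 15 measured, 3 had intervals wholly above 0 (20%, against 14.3% of all genes) and 3 wholly below (20%, against 11.2%). Counts this small do not set the group apart from all genes. FBXL19, a CXXC zinc finger protein that binds unmethylated CpG islands, had 383 counts in the library labelled JFK against 298 in vector (log2 fold 0.39, interval 0.16 to 0.61). FBXL18 had 778 expected counts against 682 (0.21, interval 0.06 to 0.36), and FBXL12 had 98 counts against 71 (0.49, interval 0.03 to 0.95). FBXL19 overlaps the antisense gene FBXL19-AS1 and FBXL18 a microRNA gene, and no source used here says whether counting used strand. On the lower side, FBXL5, the iron sensor that removes the iron regulatory protein IREB2, had 270 counts against 341 (−0.31, interval −0.55 to −0.08). FBXL6 had 83 counts against 116 (−0.46, interval −0.88 to −0.04). SKP2 had 853 expected counts against 985 (−0.18, interval −0.32 to −0.05). For SKP2 the count in vector is 10.8% above the one its FPKM implies, and the log2 ratio of FPKM is −0.07.

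Among FBXO receptors, 19 of 29 measured members lay below 0 in the library labelled JFK (65.5%, against 49.5% of all genes), with a median of −0.04. FBXO4, reported as a receptor for cyclin D1, had 351 counts in the library labelled JFK against 437 in vector (log2 fold −0.29, interval −0.50 to −0.09). FBXO28 had 252 counts against 323 (−0.33, interval −0.58 to −0.09), and FBXO21 had 365 against 433 (−0.22, interval −0.43 to −0.02). FBXO11, which marks BCL6 for degradation, had 334 counts against 394 (log2 fold −0.21), with an upper bound just under 0. The exception with the most reads was the sugar-binding FBXO2, with 777 counts against 663 (0.25, interval 0.10 to 0.40). The closest relatives of FBXO2 spread widely. FBXO27 lay at 0.56 (interval −0.02 to 1.14), FBXO44 at 0.25, FBXO17 at 0.04 and FBXO6 at −0.39 (interval −0.83 to 0.06). FBXO2 and FBXO44 are overlapping neighbours on chromosome 1, and FBXO44 has counts that are not whole, so reads of this pair may be divided.

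None of the 9 measured FBXW receptors had an interval that left out 0. Of all genes, 14.3% had intervals wholly above 0 and 11.2% wholly below. FBXW10B was the member at least 1.5-fold higher, with 38.4 expected counts in the library labelled JFK against 25.8 in vector (log2 fold 0.59, interval −0.19 to 1.35). It is a close copy of FBXW10, which had 2.59 expected counts against 1.19, and the counts of both are not whole, so its value is uncertain. It lay just past the threshold and was under it in each of the other scalings tried. FBXW8, which works with CUL7, had 88.6 expected counts against 118 (−0.38, interval −0.80 to 0.03). FBXW7, the receptor for cyclin E and MYC, had 72 counts against 85 (−0.21, interval −0.69 to 0.25). Its count in vector is 6.59% above the one its FPKM implies, and the log2 ratio of FPKM is −0.17. BTRC and FBXW11, which mark IkB-alpha and beta-catenin, lay at 0.11 and 0.03.

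ING5 siRNA was set against control siRNA to ask which members differ when ING5 is depleted. ING5 itself had 81 counts under ING5 siRNA against 144 under control siRNA (log2 fold −0.81, interval −1.23 to −0.41). Among members the shift was again small: of 66 listed, 57 were measured, with log2 folds from −0.51 to 0.94 and a median of −0.05, against −0.0095 for all 11634 genes measured. Members at least 1.5-fold higher numbered 2 (3.51%, against 4.01% of all genes) and members at least 1.5-fold lower 0 (against 4.4%). Intervals lay wholly above 0 for 6 members (10.5%, against 18.3%) and wholly below 0 for 12 (21.1%, against 20.6%). Members had fewer reads here too, with a median of mean scaled counts of 220.6, against 320 for all genes measured. For 37 of the 57 (64.9%, against 65.3% of all genes) the interval lay wholly inside 1.5-fold in either direction. Members at least 2-fold higher numbered 0 (against 0.765%) and at least 2-fold lower 0 (against 0.696%), and 32 of 57 lay below 0 (against 51.4%).

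**Figure D2:**
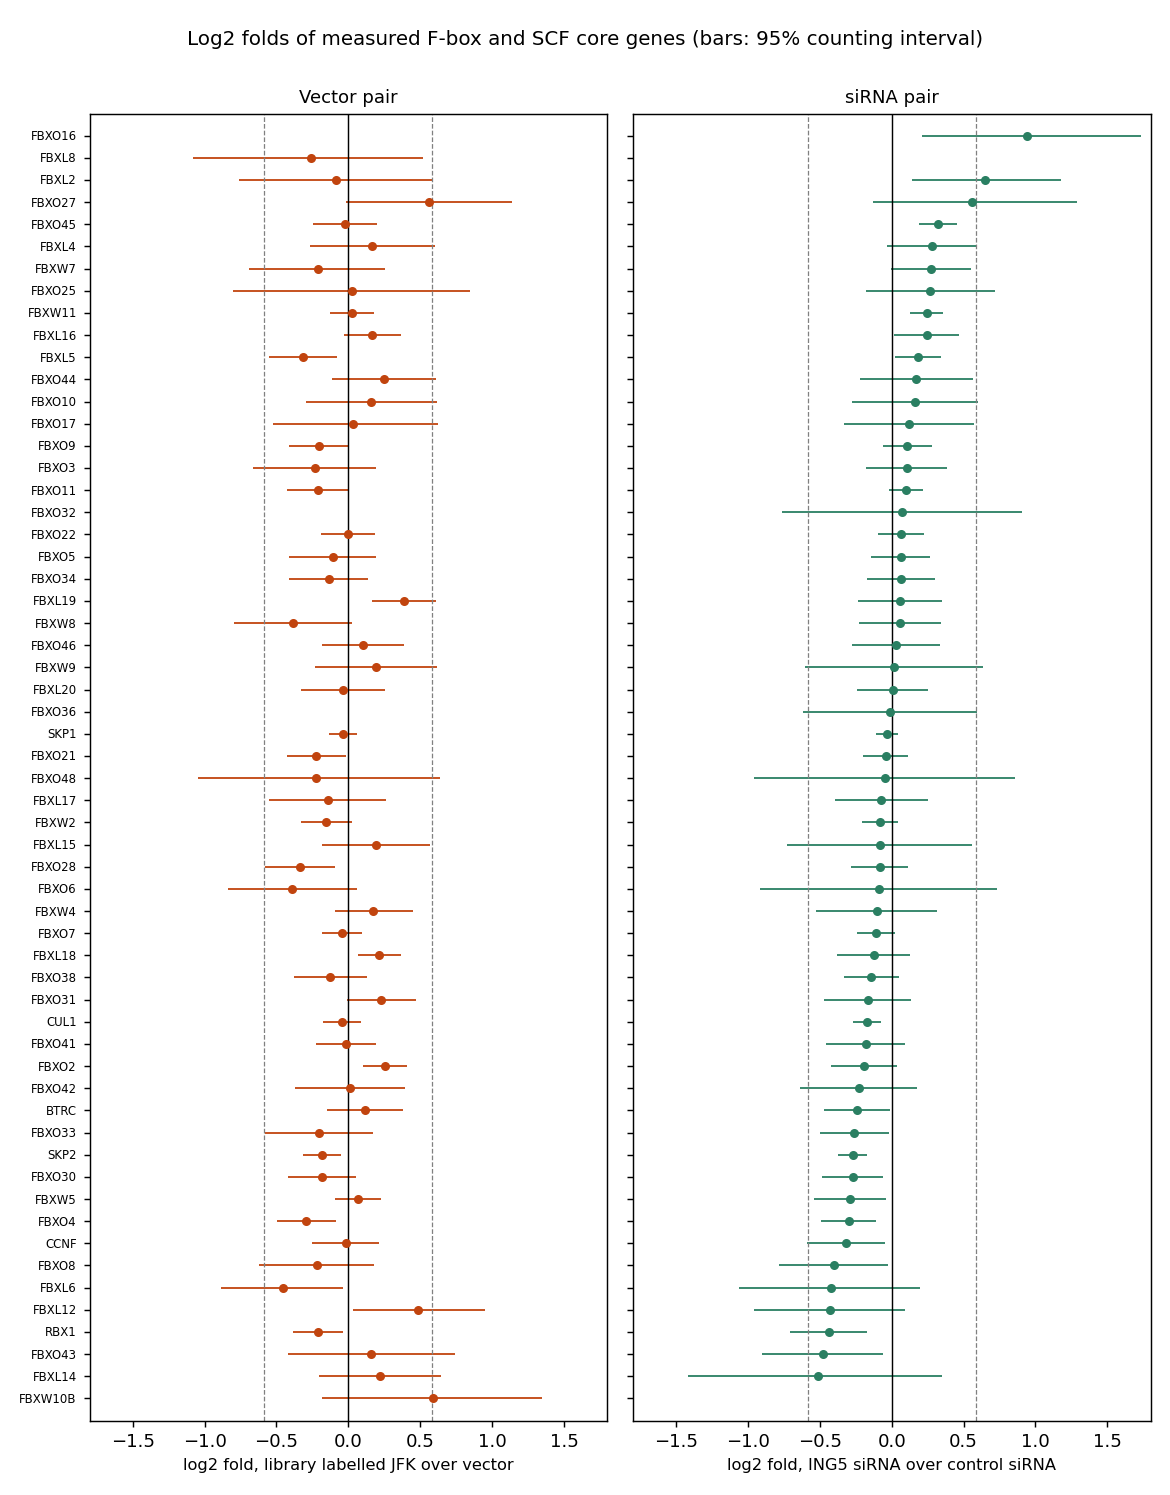
Log2 folds of measured members with exact 95% counting intervals as bars, 1 member not shown, for the library labelled JFK over vector (left) and ING5 siRNA over control siRNA (right), ordered by the siRNA pair; dashed lines mark 1.5-fold. Most points lie between the dashed lines in both panels, and FBXO16 and FBXL2 lie beyond the upper line on the right.

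The core again stood lower, and RBX1 most of all. RBX1 had 201 counts under ING5 siRNA against 275 under control siRNA (log2 fold −0.44, interval −0.71 to −0.17). CUL1 had 1564 counts against 1781 (−0.17, interval −0.27 to −0.07), and SKP1 had 2706 against 2798 (−0.03, interval −0.11 to 0.04). RBX1 and CUL1 were thus below control siRNA beyond counting error, while SKP1 was not. Over all genes, 20.6% of intervals lay wholly below 0 and 51.4% of log2 folds lay below 0. With 3 genes, this does not set the core apart from all genes. In sum the core came to 495 CPM under ING5 siRNA and 528 under control siRNA, and F-box genes to 1980 and 2010 CPM.

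The 2 members at least 1.5-fold higher under ING5 siRNA had few reads. FBXO16 had 46 counts under ING5 siRNA against 24 under control siRNA (log2 fold 0.94, interval 0.21 to 1.73), and in the vector pair it was below the filter, with 5 and 8 counts in the library labelled JFK and vector. FBXL2, a membrane-anchored receptor, had 84 counts under ING5 siRNA against 54 under control siRNA (0.65, interval 0.14 to 1.17). FBXL2 overlaps UBP1 and its closest relative FBXL20 did not follow it, with 275 counts against 277 (0.01, interval −0.24 to 0.25). The level of FBXL20 relative to FBXL2 was 0.946 under ING5 siRNA and 1.48 under control siRNA. Neither FBXO16 nor FBXL2 reaches a mean scaled count of 100.

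Better covered members above 0 were FBXO45 and FBXW11. FBXO45, which pairs with the ligase MYCBP2 in place of CUL1, had 1043 counts under ING5 siRNA against 844 under control siRNA (log2 fold 0.32, interval 0.19 to 0.45). FBXW11 had 1392 counts against 1190 (0.24, interval 0.13 to 0.36), whereas its paralog BTRC had 286 against 342 (−0.24, interval −0.47 to −0.01). These receptors share the phosphodegron of IkB-alpha and beta-catenin, and their transcripts lay on opposite sides of 0: FBXW11 reads were 4.87 times those of BTRC under ING5 siRNA (interval 4.28 to 5.55) and 3.48 times under control siRNA (3.08 to 3.94). In the vector pair the ratio was 2.77 in the library labelled JFK (2.39 to 3.21) and 2.94 in vector (2.53 to 3.43), where the intervals overlap. FBXW7 had 240 counts against 201 (0.27), with a lower bound just under 0. FBXL5 and FBXL16 lay at 0.18 (interval 0.02 to 0.34) and 0.24 (interval 0.02 to 0.47).

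SKP2 had 1452 counts under ING5 siRNA against 1770 under control siRNA (log2 fold −0.27, interval −0.37 to −0.17). CCNF, or cyclin F, which marks the ribonucleotide reductase subunit RRM2, had 205 against 258 (−0.32, interval −0.59 to −0.05). FBXO5 and FBXO43, the paralogous inhibitors EMI1 and EMI2 of the anaphase-promoting complex, stood apart: FBXO43 had 83 counts against 117 (−0.48, interval −0.90 to −0.06) and FBXO5 had 399 against 386 (0.06, interval −0.14 to 0.27), which was not separable from 0. Reads of FBXO5 were 4.81 times those of FBXO43 under ING5 siRNA (interval 3.79 to 6.17) and 3.30 times under control siRNA (2.68 to 4.09), with overlapping intervals.

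Other FBXO and FBXW receptors with intervals wholly below 0 under ING5 siRNA were less abundant or less shifted. FBXO4 had 396 counts under ING5 siRNA against 493 under control siRNA (log2 fold −0.30, interval −0.49 to −0.11). FBXO30 had 343 against 419 (−0.27), FBXO33 had 266 against 322 (−0.26) and FBXO8, which also carries a Sec7 domain, had 104 against 139 (−0.40, interval −0.78 to −0.03). FBXW5 had 246 against 304 (−0.29, interval −0.54 to −0.04). The member farthest below 0, FBXL14, rested on 20 counts against 29, with an interval of −1.42 to 0.35. Wide intervals also surround FBXL12 with 55 against 75 counts, FBXL6 with 39 against 53 and FBXO27 with 44 against 30. FBXL4, a mitochondrial receptor, had 191 against 159 (0.28, interval −0.03 to 0.59).

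**Figure D3:**
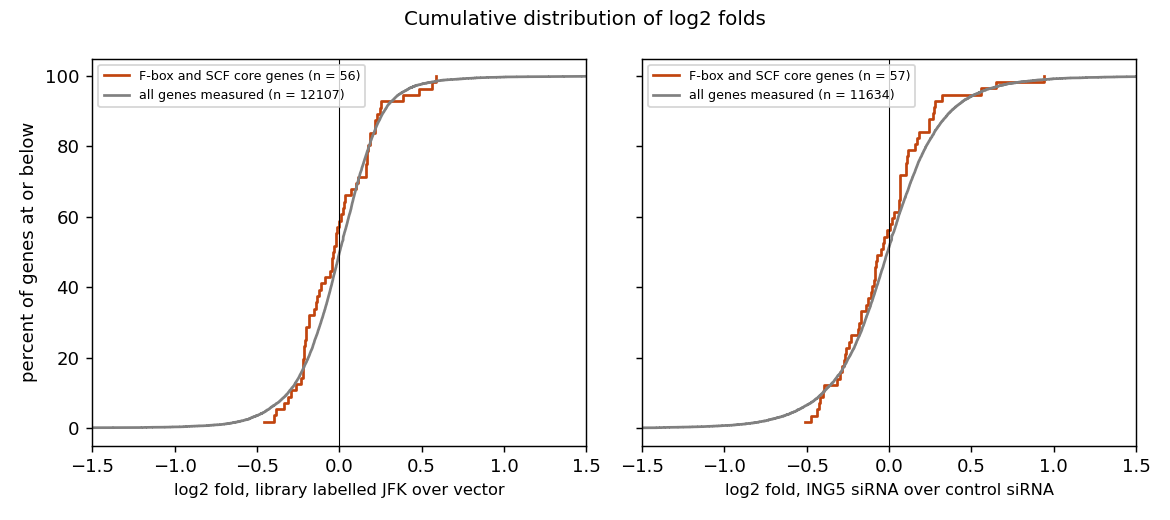
Cumulative percent of genes at or below each log2 fold, for measured members and all measured genes, with the vector pair left and the siRNA pair right. Medians are −0.04 for members and 0.0023 for all genes on the left, and −0.05 and −0.0095 on the right.

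Both pairs were then set side by side, which share no library. Of 54 members measured in both, 31 lay on the same side of 0 (57.4%, against 49.7% of the 11148 genes measured in both): 20 were lower in both and 11 higher in both. Intervals lay wholly below 0 in both pairs for 3 members, RBX1, SKP2 and FBXO4 (5.56%, against 3.94% of genes), and wholly above 0 in both for 0 (against 2.84%). FBXL5 was the 1 member with intervals on opposite sides (1.85%, against 6.04%), with 270 counts in the library labelled JFK against 341 in vector and 662 under ING5 siRNA against 590 under control siRNA. FBXL12 also lay on opposite sides, at 0.49 and −0.43, though its interval in the siRNA pair holds 0. FBXO27 lay at 0.56 in both, with intervals that hold 0 in each. For SKP2 the vector pair's value is subject to the mismatch of count and FPKM given above, and the gene overlaps NADK2.

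**Figure D4:**
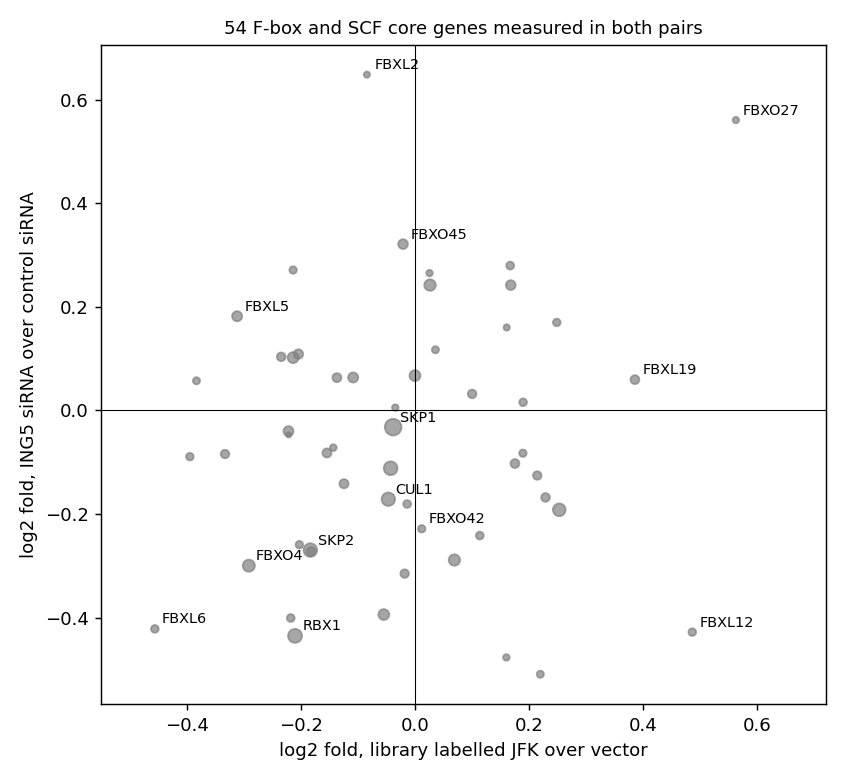
Log2 fold in the vector pair (horizontal) against log2 fold in the siRNA pair (vertical) for the 54 members measured in both; point area grows with mean level and selected members are named. RBX1, SKP2 and FBXO4 lie in the lower left, FBXL5 in the upper left, and FBXO42 near 0 horizontally at −0.23 vertically.

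Genes that act with SCF ligases were described as 5 lists (plot of pathway lists). The other cullins and RNF7, the second RING protein, had medians of −0.02 for the vector pair and −0.03 for the siRNA pair. In either pair 0 of 8 were 1.5-fold apart. Over all genes, 1.5% were at least 1.5-fold higher and 2.07% lower in the vector pair, and 4.01% and 4.4% in the siRNA pair. With shares this small, 0 of 8 does not set the list apart. In the siRNA pair CUL4B lay lowest (1263 counts under ING5 siRNA against 1610 under control siRNA, log2 fold −0.33) and CUL7 highest (276 against 228, 0.29). The NEDD8 pathway, which attaches the activating NEDD8 tag to cullins, had 10 of 12 measured genes below 0 in the library labelled JFK (against 49.5% of all genes) and a median of −0.21. Intervals lay wholly below 0 for 4 of the 12 (against 11.2%) and wholly above 0 for 1 (against 14.3%). DCUN1D4, a co-E3 for this tag, had 150 counts against 218 there (−0.51, interval −0.82 to −0.21), and the E1 subunit gene UBA3 had 335 against 414 (−0.28). UBE2M, the E2 for NEDD8, lay at 0.22. Under ING5 siRNA the same list had a median of 0.09, with 5 of 13 intervals wholly above 0 (against 18.3% of all genes) and 3 wholly below (against 20.6%). DCUN1D3 lay at 0.44 and UBE2M at 0.42, against GLMN, an RBX1 inhibitor, at −0.35. SENP8, which processes NEDD8, had 16 counts against 31 (−0.92, interval −1.91 to −0.02). It was the 1 gene of 13 at least 1.5-fold lower (against 4.4% of all genes) and rested on few reads.

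The COP9 signalosome, which strips NEDD8 from cullins, had a median of −0.09 for the vector pair and −0.03 for the siRNA pair. In either pair 0 of 10 subunits were 1.5-fold apart. Shares over all genes were 1.5% higher and 2.07% lower in the vector pair, and 4.01% and 4.4% in the siRNA pair. COPS3 and COPS8 were low in each: COPS3 had 572 counts in the library labelled JFK against 771 in vector (log2 fold −0.41, interval −0.57 to −0.25) and 979 under ING5 siRNA against 1323 under control siRNA (−0.42, interval −0.54 to −0.30). COPS8 had 391 against 517 in the vector pair (−0.38) and 549 against 798 in the siRNA pair (−0.52, interval −0.68 to −0.36). COPS9, a small subunit, stood at 0.42 in the library labelled JFK. Of the 10 subunits, 2 had intervals wholly below 0 in the vector pair (against 11.2% of all genes) and 1 wholly above (against 14.3%). In the siRNA pair 4 lay wholly below (against 20.6%) and 1 wholly above (against 18.3%). E2 enzymes, partner E3 enzymes and cofactors had 0 of 11 genes 1.5-fold apart in either pair. Beside the 1.5-fold shares over all genes, 0 of 10 and 0 of 11 do not set either list apart. Their medians were −0.03 and −0.10, with CDC34, the E2 that extends ubiquitin chains, at 0.31 and −0.26 in the vector and siRNA pairs. UBE2D1, an E2 that primes substrates, lay farthest from 0, with 228 counts under ING5 siRNA against 183 under control siRNA (0.33, interval 0.05 to 0.62). It was the 1 gene of 11 with an interval wholly above 0 there (against 18.3% of all genes). In the same pair 9 of 11 lay below 0 (against 51.4%), with 4 intervals wholly below (against 20.6%). In the vector pair 2 intervals lay wholly below 0 (against 11.2%) and 1 wholly above (against 14.3%).

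Genes whose proteins are SCF substrates had medians of 0.06 for the vector pair and 0.11 for the siRNA pair, with 18 genes measured in each. In the vector pair 4 intervals lay wholly above 0 (against 14.3% of all genes) and 4 wholly below (against 11.2%), and 1 gene, JUN, was at least 1.5-fold higher (against 1.5%), with 120 counts in the library labelled JFK against 79 in vector (log2 fold 0.62, interval 0.21 to 1.06). In the siRNA pair 10 intervals lay wholly above 0 (against 18.3% of all genes) and 3 wholly below (against 20.6%), and 2 genes were at least 1.5-fold higher (against 4.01%). These were CDC25A, a phosphatase destroyed through BTRC and FBXW11, with 799 counts under ING5 siRNA against 450 under control siRNA (0.84, interval 0.68 to 1.01), and JUN, with 329 against 197 (0.75). CDKN1B, for the SKP2 substrate p27, had 1295 against 924 (0.50, interval 0.38 to 0.63). RRM2, the cyclin F substrate, had 1662 against 2299 (−0.45, interval −0.54 to −0.36). The substrate list was not matched to all genes for read depth, on which the width of an interval depends.

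**Figure D5:**
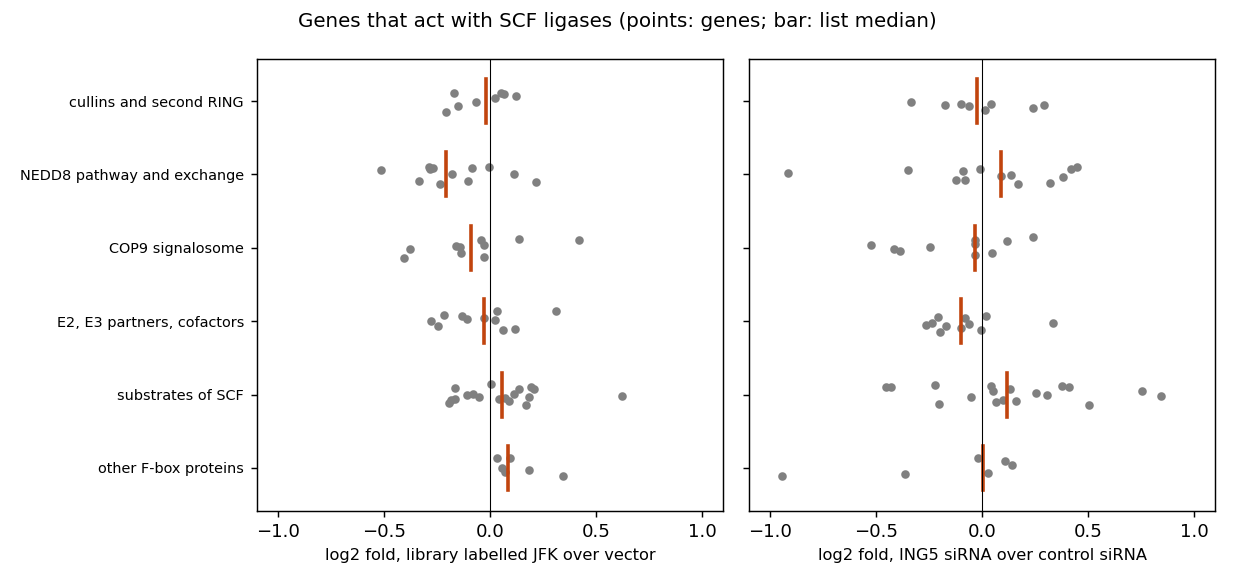
Log2 folds of the measured genes of each list (points) and the list median (bar) for the library labelled JFK over vector (left) and ING5 siRNA over control siRNA (right). NEDD8 pathway genes have a median of −0.21 on the left and 0.09 on the right; the bottom row holds F-box proteins whose symbols lie outside the naming rule.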

How the data were processed

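Trizol-extracted RNA was sequenced on an Illumina instrument, per the labels' protocols. Tools named in the submitters' processing notes are STAR, DESeq2, fastp and FastQC, and the builds are GRCh37 and hg19; the counter was not named. The authors deposited expected counts and FPKM for the vector pair, and counts and RPKM for the siRNA pair, per the file headers; 69.0% of the expected counts were whole for the library labelled JFK, against 68.6% for vector (tolerance 0.001).

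Entrez identifiers were matched to RefSeq symbols (GRCh38.p14): 16900 of 17010 in the vector pair and 16769 of 16858 in the siRNA pair. Rows with a blank count (1) or repeated identifiers (4) were left out. Counts were scaled within each pair by TMM (trims of 0.3 on log ratios and 0.05 on intensities), and log2 ratios were computed after adding 0.5 in Python 3.11.15 (numpy 2.4.6, pandas 2.3.3, scipy 1.17.1; plots with matplotlib 3.10.9). Expected counts were rounded only for intervals. Genes with a mean scaled count of at least 20 were called measured, and 1.5-fold was the threshold. With 1 library per group no test was run. The code was tested on simulated data. Reads carry no molecular identifiers and need not be independent molecules, which intervals leave out; 3 reads, the floor, correspond to 0.326 to 0.418 CPM. Every member could be named; outside the family, the rule allowed ING5, ING4 and the 2 highest and 2 lowest genes of each list, of which some are given. UBA3 and the promoters shown were chosen after their values were seen. Results on 1 member and 1 list are not reported here by name. Members and lists were chosen with earlier results of these data known. Alternatives were other scalings, FPKM or RPKM ratios, 5 added, other filters and, added after seeing the data, whole counts only and members overlapping no listed gene.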

Additional observations from a re-analysis of the deposited data

How the results depend on the processing

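The number of members at least 1.5-fold higher in the library labelled JFK was 1 as reported. It became 0 with median-of-ratios scaling, total-count scaling, the FPKM ratio and 5 added before the log. Over all genes the number ran from 133 to 172 under these 4 settings, with at least 12105 genes measured. It was also 0 among members with whole counts, and at a mean of at least 100 (against 22 of 9177 genes). With no filter it became 2 of 64 (against 1571 of 17009 genes). FBXW10B ran from 0.52 to 0.59 in log2 fold. Members at least 1.5-fold lower with no filter numbered 3 of 64 in the library labelled JFK (against 1846 of 17009 genes). Under ING5 siRNA they numbered 3 of 66 (against 2113 of 16856 genes). Under ING5 siRNA the 2 higher members became 6 of 66 with no filter (against 2263 of 16856 genes). At a mean of at least 100 they became 0 of 40 (against 168 of 9090 genes). Among members overlapping no listed gene they became 1 of 45 (against 4.01% of all genes), where FBXL2 drops out by construction. Member medians ran from −0.07 to −0.03 in the vector pair and from −0.08 to −0.04 in the siRNA pair, and the share of members on the same side of 0 in both pairs from 53.7% to 62.8%. Under the 4 settings that can move a fold (both scalings, the FPKM or RPKM ratio, 5 added), all 224 alternative log2 folds of the vector pair and all 228 of the siRNA pair stayed inside their counting intervals. Intervals were not recomputed under these settings, so whether each still leaves out 0 was not tested. FBXL12 in the vector pair, for example, had a lower bound of 0.03, and its log2 fold of 0.49 became 0.45 with total-count scaling. No scaling moved the median of all genes by over 0.1. With no filter, the added members have few reads, and a fold from such counts depends on the amount added. No paired analysis was possible because each group holds 1 library. Counting error at 20 to 100 reads is wide, so differences of 1.5-fold were not detectable for the least covered members.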

Other observations

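F-box proteins whose symbols lie outside the naming rule were read as a list of 7, of which 6 were measured in each pair. In the library labelled JFK all 6 measured lay above 0 (median 0.09, against 50.5% of all genes above 0). Of these, 1 had an interval wholly above 0 (against 14.3% of all genes). It was TSPAN17, with 304 counts against 243 in vector (log2 fold 0.35, interval 0.10 to 0.60). Under ING5 siRNA the list had a median of 0.0036 and held a log2 fold lower than that of any measured member of the named family: NCCRP1, a homologue of a fish cytotoxic cell receptor that carries an F-box-associated domain, had 105 counts under ING5 siRNA against 205 under control siRNA (−0.95, interval −1.30 to −0.60). KDM2A, a histone H3 lysine demethylase that binds unmethylated CpG islands, had 1101 counts against 1433 (−0.36, interval −0.48 to −0.25), and its paralog KDM2B had 430 against 404 (0.11, interval −0.09 to 0.31). Of the 6 measured under ING5 siRNA, 1 was at least 1.5-fold lower (against 4.4% of all genes). Intervals lay wholly below 0 for 2 (against 20.6%) and wholly above 0 for 0 (against 18.3%). Counts this small do not set the list apart from all genes. LMO7 was the most read gene of this list, with 8413 counts under ING5 siRNA and 8340 under control siRNA.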
